A study of Rattus norvegicus with 91 samples.

Results

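AA (Alko, Alcohol) and ANA (Alko, Non-Alcohol) are a pair of rat lines selectively bred for high and low alcohol consumption. The pair's ventral tegmental area was profiled on 20 Affymetrix arrays, 10 labelled AA and 10 labelled ANA, of 91 arrays in the series. They were chosen by the line pair in their titles, which also number the animals. Other lines used here are HAD1 with LAD1 (18 arrays) and HAD2 with LAD2 (17 arrays), replicate lines bred for high or low alcohol drinking. Arrays of P with NP and of sP with sNP serve only for array distances, correlations and a fit of all 91 arrays. Their titles give alcohol preference as Pr for P and sP and as NPr for NP and sNP. All groups are rats of a selected line with no transgene or treatment named in the labels. The labels state no age, sex or exposure to alcohol. The values are log2 signals, on which a difference of 1 is a 2-fold difference, from 3.71 to 16.2.

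The ventral tegmental area is a midbrain region whose dopamine neurons project to the ventral striatum and cortex and take part in reward learning. GABA neurons, glutamate neurons, glia and vessels lie among them. Inputs that reach the dopamine neurons through nicotinic, glutamate, GABA, glycine and opioid receptors set how they fire. Lines bred apart for many generations differ at alleles that selection favoured and also at alleles that were fixed by drift. A difference between a single AA and a single ANA line therefore does not by itself belong to alcohol consumption.

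Whether the labels of these arrays match their values is open, and 3 arrays stood apart from the rest. The distance between 2 arrays was taken as the mean absolute difference between their sorted values, and the median distance to each set of arrays is given. AA 1 lay 0.103 from the other arrays of the pair and 0.0348 from those labelled P and NP. AA 19 lay 0.0429 and ANA 20 lay 0.0547 from the pair, against 0.0145 and 0.0122 from the arrays labelled sP and sNP. Each of these 3 was thus closest in distribution to arrays labelled with another pair. The distances of the other 17 to their own pair ran from 0.0168 to 0.0488, which overlaps the value of AA 19. Across all probe sets AA 19 and ANA 20 both correlated at 0.996 with the sP and sNP arrays and at 0.988 with the pair, where the other 17 were between 0.991 and 0.995. AA 1 correlated at 0.983 with the pair, 0.981 with P and NP and 0.985 with sP and sNP.

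The table lists these 3 arrays in places 1, 19 and 20 of the pair, next to the columns labelled with the pairs they are close to. In that order the titles alternate between AA and ANA, so labels displaced by 1 place would turn the sign of every difference within the 17 other arrays. A 20-array difference would then hold arrays of other pairs and would not simply turn. Directions below are therefore those of the labels and are not settled. Totals of called genes are given for all 20 arrays and for the 17 without AA 1, AA 19 and ANA 20, which leave 8 AA and 9 ANA arrays. Differences of most called named genes are given for both sets. Ranges within a line, further probe sets and genes that were not called are mostly given with the 17 alone.

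Within the 17, AA 5 and ANA 6 lay between the lines. For each array, the genes at least 2-fold apart between the line means of the others were used to place it on a scale where 0 is the ANA mean and 1 the AA mean. Its median position over these 23 to 29 genes was 0.241 for AA 5 and 0.328 for ANA 6. The other 7 AA arrays of the 17 lay between 1.02 and 1.15, and the other 8 ANA arrays between -0.085 and 0.072. AA 5 and ANA 6, labelled with opposite lines, were also the most alike of the 136 pairs of these arrays. Their median absolute difference over all probe sets was 0.0888, and the next pair, AA 3 and AA 11, differed by 0.1001. Outside the 17, AA 1 had a median position of 0.771, while AA 19 and ANA 20 both had a median of -0.050. These medians cover a split, since AA 19 was nearer the AA mean at 11 of 24 genes and nearer the ANA mean at 13, ANA 20 at 10 and 14, and AA 1 at 15 and 9. Counts are therefore also given for 15 arrays, without AA 5 and ANA 6, a setting chosen after seeing the data. Because AA 5 and ANA 6 were left out for lying between the lines, higher counts with 15 arrays are partly fixed by that choice.

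**Figure D1:**
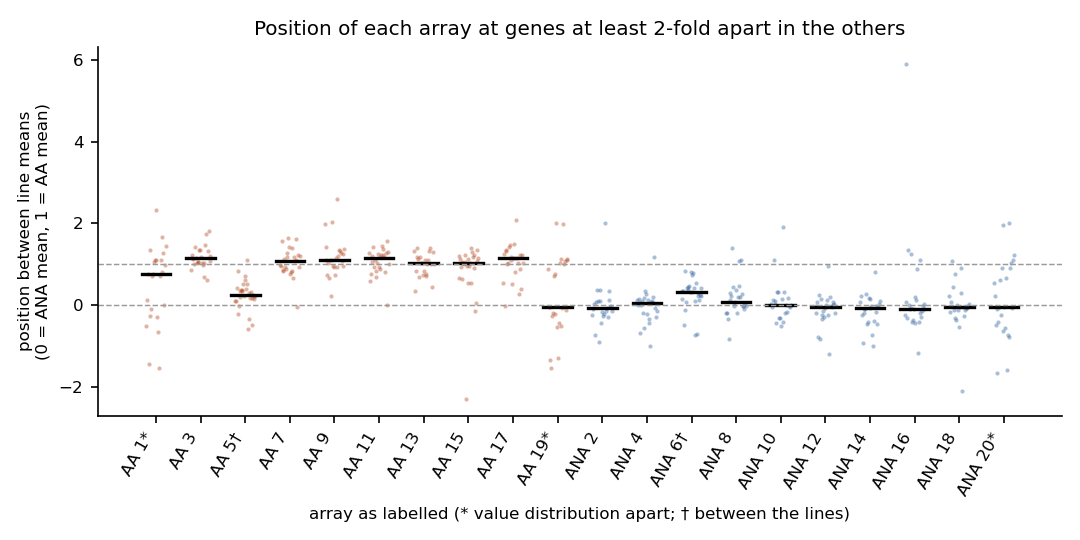
Position of each array (horizontal axis, as labelled) between the ANA mean (0) and the AA mean (1) at genes whose line means in the other arrays were at least 2-fold apart; points are genes and black bars medians. AA 5 (0.241) and ANA 6 (0.328) lie between the lines. The genes of AA 19 and ANA 20 (medians -0.050) are split, 11 and 10 of 24 of them nearer the AA mean.

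None of 5 measures of array quality passed a permutation test between the lines (lowest adjusted p 0.654 with 20 arrays and 0.585 with 17). The array median was 7.76 ± 0.056 (SD, n = 10) in AA and 7.77 ± 0.022 (SD, n = 10) in ANA. The 3′-minus-5′ signal of the Gapdh control, which rises as RNA is degraded or amplified less fully, was 0.501 ± 0.145 in AA and 0.567 ± 0.045 in ANA (SD, n = 10 each). Of 16 permutation tests over array measures and marker list means with 20 arrays, 1 had an adjusted p under 0.05, that of a marker list that holds Enpp6 and is described with that gene. The number of arrays limits the precision, and the median standard error of a difference was 0.060 with 20 arrays and 0.055 with 17.

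The comparison of AA with ANA addresses how expression in this region differs between a high-drinking and a low-drinking line. With 20 arrays 150 of 10445 tested genes were called at an adjusted p under 0.05 (limma, Benjamini-Hochberg over all tested genes), which is 1.44%. Of these, 60 (0.574%) were higher and 90 (0.862%) lower in the arrays labelled AA. With 17 arrays 447 genes were called (4.28%), 217 higher (2.08%) and 230 lower (2.2%), and with 15 arrays 624 (5.97%). After each array was centred on its median, 62% of the 17-array calls were higher in AA, against 48.5% as deposited. Of the 150 genes, 149 were also called with 17 arrays in the same direction, and of the 447, 439 with 15 arrays. The smaller sets are parts of the larger ones, so these shared calls are no separate check. Without adjustment, 1374 genes (13.2%) had a p under 0.05 with 20 arrays and 1871 (17.9%) with 17. In place of the 150, leaving out AA 3 gave 97 calls, AA 5 254, AA 19 241 and ANA 20 284, while leaving out AA 15 gave 294 in place of the 447.

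The calls of some named genes depended on which array was left out. Of the 33 named genes called with 20 arrays, 25 kept their call whichever array was left out. Fcrl2 lost it in 18 of 20 such fits (adjusted p up to 0.090), Hnmt in 16 (0.097), Adcy2 in 15 (0.082), Wdr37 in 13 (0.075), Abat in 13 (0.076), Glra1 in 11 (0.079), Tap2 in 11 (0.064) and Abca1 in 2, without AA 3 (0.053) or AA 7. Of the 49 named genes called with 17 arrays, 42 kept their call, among them all of these 8. The floor of 6.92 that the higher line mean of a tested gene had to reach is the 40th percentile of the pair's values and is no test of detection. With 17 arrays 14 of the 53 named genes had a line mean under it, 9 in AA, 4 in ANA and 1 (Prss35) in both. Such a gene passed the floor through its brighter line, its difference rests partly on dim signals, and no fold is given for it.

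Most differences were small. At an adjusted p under 0.05 and at least 1.5-fold there were 36 genes (0.345%) with 20 arrays and 64 (0.613%) with 17. At 2-fold or more the counts were 11 (0.105%) and 20 (0.191%). The lines did not overlap in any array for 4 genes (0.0383%) with 20 arrays, 47 (0.45%) with 17 and 216 (2.07%) with 15. The 4 genes are named because they were so few, after their values were seen. They were Cntf, which encodes the ciliary neurotrophic factor (0.48 higher in AA, adjusted p 7.0e-04), Phf20 (0.16 higher, 0.013), Rnf217 (-0.29, 0.0056) and Cfap418 (-0.19, 0.0074).

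**Figure D2:**
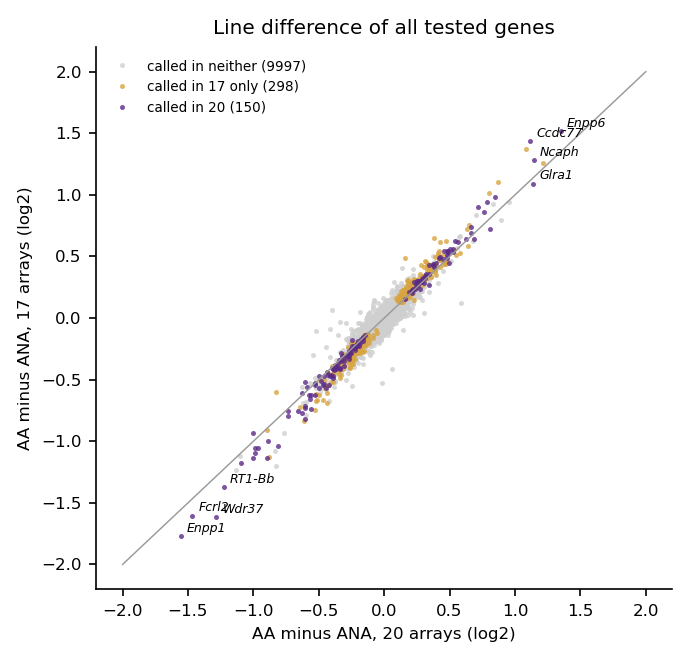
Log2 difference AA minus ANA of every tested gene with 20 arrays (horizontal) and 17 arrays (vertical), with the line of equality. Of the 150 genes called with 20 arrays all 150 keep their sign with 17, and Enpp1 lies farther from 0 with 17 arrays (-1.77) than with 20 (-1.56), while Glra1 moves from 1.14 to 1.09.

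The largest differences were in genes lower in the arrays labelled AA. Enpp1 encodes an ectoenzyme that cleaves extracellular ATP to AMP and pyrophosphate. Over the 17 arrays it was lowest 5.95, median 6.54 and highest 7.78 in AA, and 7.82, 8.46 and 9.12 in ANA. The lines did not overlap there, but AA 5 (7.78) and ANA 6 (7.83) met at the border, and AA 19 stood at 8.82, among the ANA arrays. The difference was -1.77 ± 0.24 (log2 ± standard error, adjusted p 2.3e-04 by limma) with 17 arrays and -1.56 ± 0.28 (adjusted p 0.0051) with 20. The AA mean of 6.66 was under the floor.

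Wdr37, a WD-repeat gene, spread widely within AA. Its values were 8.21, 8.94 and 10.46 (lowest, median, highest of the 8 AA arrays) against 10.51, 10.94 and 11.004 in ANA. AA 13 (10.10) and AA 17 (10.21) lay near AA 5 (10.46), and the other 5 AA arrays were below 9. AA 1 (10.88) and AA 19 (11.08) were at the ANA level. The difference was -1.61 ± 0.26 (adjusted p 0.0012) with 17 arrays and -1.28 ± 0.31 (adjusted p 0.036) with 20. A further Wdr37 probe set differed by 0.20 ± 0.06 in the other direction, so the signals of this gene disagree.

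Fcrl2 belongs to the Fc receptor-like family of immune receptors. It was 6.41, 6.72 and 8.09 in AA and 7.99, 8.48 and 9.07 in ANA over the 17 arrays, a difference of -1.60 ± 0.20 (adjusted p 1.3e-04), with the AA mean (6.87) under the floor. Apart from AA 5, the AA arrays were all below 7. AA 19 (5.26) and ANA 20 (5.33) were below all 17, and with 20 arrays the difference was -1.47 ± 0.36 (adjusted p 0.044).

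RT1-Bb encodes the beta chain of an MHC class II molecule, which presents peptides to helper T cells. It was 5.15, 5.78 and 6.73 in AA and 6.77, 7.28 and 7.55 in ANA, a difference of -1.38 ± 0.18 (adjusted p 2.1e-04 with 17 arrays). The AA mean of 5.84 was under the floor. ANA 20, at 5.97, was within the AA range, and with all 20 arrays the difference was -1.23 ± 0.19 (adjusted p 0.0022). MHC genes of the rat have closely similar copies, so a probe set may read more than its named gene.

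Slc13a3, a sodium-dependent dicarboxylate transporter, was 8.90, 9.14 and 10.17 in AA and 10.17, 10.39 and 10.85 in ANA, with AA 5 (10.17) as the single AA array at the ANA level. The difference was -1.17 ± 0.14 (adjusted p 1.1e-04) with 17 arrays and -1.09 ± 0.17 (0.0022) with 20. Slc13a3 was also listed as a marker of meninges and fibroblasts. Of the 16 tested genes of that list, 15 had a difference below 0 with 17 arrays and 1, Slc13a3, was called. The list's mean level ran from 8.58 to 9.51 in AA and from 8.42 to 10.38 in ANA, and its part in the Slc13a3 difference was not tested.

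Zfp40 (-1.05 ± 0.12 with 17 arrays) and Zfp317 (-1.09 ± 0.13), also called lower in AA in both fits, encode zinc finger proteins. With 20 arrays Zfp40 differed by -0.99 ± 0.16 (adjusted p 0.0028) and Zfp317 by -0.98 ± 0.16 (0.0022). A further Zfp317 probe set differed by -0.47 ± 0.07. Arhgap28, likewise called in both, differed by -1.05 ± 0.12, with AA between 6.15 and 7.09 and ANA between 7.24 and 7.86 over the 17 arrays. With 20 arrays Arhgap28 differed by -0.97 ± 0.15 (adjusted p 0.0022). Hnmt, the histamine N-methyltransferase that inactivates histamine in the brain, differed by -1.14 ± 0.12 (adjusted p 7.4e-05). With 20 arrays, which include AA 1 at 8.63 and AA 19 at 8.82, the Hnmt difference was -0.89 ± 0.23 (adjusted p 0.049). The cholesterol exporter gene Abca1 (-1.04 ± 0.16), the membrane-bound carbonic anhydrase gene Car4 (-0.99 ± 0.13) and the medium-chain acyl-CoA synthetase gene Acsm5 (-0.93 ± 0.21) were also called in both fits. Of 2 further Abca1 probe sets, 1 differed by -0.65 ± 0.16 and the other by 0.18 ± 0.07. Aadat, whose product makes kynurenic acid, an antagonist at glutamate receptors, differed by -1.12 ± 0.18 (adjusted p 0.0013) with 17 arrays and by -0.88 ± 0.23 (0.054) with 20. Arhgap28, Acsm5 and Aadat had AA means under the floor.

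Higher in the arrays labelled AA, Enpp6 had the largest difference. Its product is a choline-specific phosphodiesterase and is known as a marker of newly forming oligodendrocytes. It was 8.62, 9.36 and 9.67 in AA and 7.27, 7.85 and 8.45 in ANA over the 17 arrays, and the lines did not overlap. ANA 20 (9.16) was at the AA level. The difference was 1.51 ± 0.18 (2.86-fold, adjusted p 7.9e-05) with 17 arrays and 1.3504 ± 0.20 (2.55-fold, adjusted p 0.0022) with 20. None of the other 7 tested genes of the list of oligodendrocyte precursors and forming oligodendrocytes was called, and among them Pdgfra differed by -0.04, Olig1 by 0.10 and Bcas1 by -0.09 with 17 arrays. The list mean, which holds Enpp6, ran from 10.67 to 10.91 in AA and from 10.45 to 10.78 in ANA with 20 arrays (difference 0.1996, permutation p 3.3e-04, adjusted p 0.0053). Enpp6, named for its large difference, is 1 of the 8 genes averaged, so this test is not separate from that of Enpp6. The median difference of the 8 genes was 0.04 with 20 arrays, and no mean without Enpp6 was tested. Nothing about these cells is read from the list mean.

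Ccdc77, a coiled-coil domain gene, was nearly uniform within AA. It was 8.59, 9.61 and 9.66 in AA and 7.61, 7.93 and 8.59 in ANA, and 7 of the 8 AA arrays lay between 9.50 and 9.66. AA 5 and ANA 6 were both at 8.59. AA 1 (7.92) and AA 19 (7.75) were at the ANA level. The difference was 1.11 ± 0.24 (adjusted p 0.016) with 20 arrays and 1.43 ± 0.15 (adjusted p 7.4e-05) with 17. A further probe set of the gene differed by 1.74 ± 0.17 in the same direction.

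Ncaph encodes a subunit of condensin, which compacts chromosomes in dividing cells. It was 8.02, 8.97 and 9.30 in AA and 7.14, 7.68 and 7.96 in ANA, without overlap over the 17 arrays. The difference was 1.28 ± 0.16 (2.43-fold, adjusted p 1.6e-04), and with 20 arrays it was 1.14 ± 0.24 (0.015). AA 19 (6.93) and ANA 20 (6.66) were below all 17.

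Also higher in AA, Ltb, the lymphotoxin beta gene of the tumour necrosis factor family, was 0.98 ± 0.13 higher with 17 arrays, with AA between 7.92 and 8.70 and ANA between 7.01 and 7.81. With 20 arrays Ltb was 0.85 ± 0.15 higher (adjusted p 0.0039). The kinase gene Nek3 was 0.94 ± 0.10 higher, and P3h4, whose product takes part in collagen modification, 0.90 ± 0.12. With 20 arrays the differences were 0.78 ± 0.13 for Nek3 (adjusted p 0.0022) and 0.72 ± 0.14 for P3h4 (0.0083). Of 4 further P3h4 probe sets, 3 were higher in AA by 0.68 to 0.91 and 1 was lower (-0.17 ± 0.06). Syndig1l (0.86 ± 0.14), Eif3c, a subunit of the translation initiation factor eIF3 (0.74 ± 0.10), Egfl6 (0.72 ± 0.12), the Ras-like GTPase gene Rerg (0.69 ± 0.10) and Tifab (0.65 ± 0.10) were called in both fits, and a further Eif3c probe set was 0.53 ± 0.13 higher. With 20 arrays Syndig1l was 0.77, Eif3c 0.66, Egfl6 0.80, Rerg 0.67 and Tifab 0.69 higher (adjusted p from 0.0047 to 0.015). Called with 17 arrays and not with 20 were Calca, which encodes calcitonin and the calcitonin gene-related peptide (1.375 ± 0.23, against 1.08 ± 0.30 and an adjusted p of 0.070), Prss35 (1.256 ± 0.20, 0.057 with 20) and Grxcr1 (1.10 ± 0.15, 0.12 with 20). A further Calca probe set of similar brightness differed by 0.27 ± 0.09. Prss35 averaged 6.76 in AA and 5.51 in ANA over the 17 arrays, both under the floor, which it reached through the 20-array AA mean. The ANA means of Egfl6, Tifab and Calca were also under it. For Grxcr1 the lines did not overlap over the 17 arrays, while AA 19 stood at 6.44, below all others. The complement gene C3 was 1.01 ± 0.16 higher (adjusted p 9.9e-04), and 0.80 ± 0.28 (0.18) with all 20 arrays, of which AA 19 was the lowest AA array at 7.07.

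**Figure D3:**
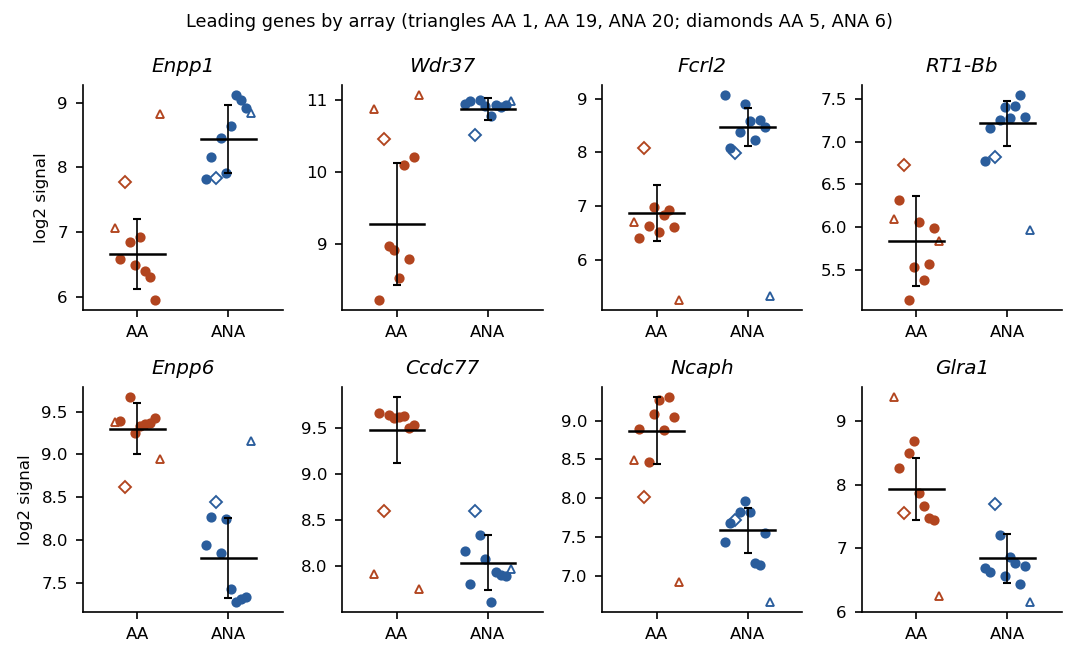
Log2 signal of the 4 lowest and 4 highest genes called in both fits, by line as labelled; each point is 1 array, and bars are the mean and SD over the 17 arrays. Open diamonds (AA 5, ANA 6) lie between the lines at Enpp1 and Ccdc77, and of the open triangles (AA 1, AA 19, ANA 20), AA 19 and ANA 20 fall below all 17 at Fcrl2 and Ncaph, and ANA 20 (9.16) is at the AA level at Enpp6.

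The stretches before the starts of the leading genes are shown because these 4 genes carried the largest differences in each direction among those called in both fits that have an entry in the RefSeq promoter table (40 of the 53 named genes do). Each is the 250 bases before the annotated start in GRCr8, 5′ to 3′ on the gene's strand. Capitals mark the TATA box TATAAA, the CCAAT box, the GC box GGGCGG and the cyclic AMP response element TGACGTCA, searched on both strands.
Enpp6 (chr16:52026729-52026978, minus strand): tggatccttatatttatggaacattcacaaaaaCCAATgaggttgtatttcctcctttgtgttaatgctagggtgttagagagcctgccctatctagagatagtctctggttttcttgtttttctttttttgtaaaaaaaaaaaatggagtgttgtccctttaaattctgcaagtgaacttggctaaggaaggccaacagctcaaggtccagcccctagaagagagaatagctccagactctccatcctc
Ccdc77 (chr4:155228945-155229194, minus strand): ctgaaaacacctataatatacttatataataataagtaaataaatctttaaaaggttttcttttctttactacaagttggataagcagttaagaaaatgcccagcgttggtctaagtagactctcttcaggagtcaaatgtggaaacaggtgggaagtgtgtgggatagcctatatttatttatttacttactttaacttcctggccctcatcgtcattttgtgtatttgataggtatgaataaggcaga
Wdr37 (chr17:66547175-66547424, plus strand): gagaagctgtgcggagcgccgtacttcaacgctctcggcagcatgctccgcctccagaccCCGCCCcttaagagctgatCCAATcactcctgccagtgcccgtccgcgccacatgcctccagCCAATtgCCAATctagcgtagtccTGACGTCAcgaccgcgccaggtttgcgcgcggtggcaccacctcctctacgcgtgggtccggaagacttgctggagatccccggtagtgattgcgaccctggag
RT1-Bb (chr20:4604119-4604368, minus strand): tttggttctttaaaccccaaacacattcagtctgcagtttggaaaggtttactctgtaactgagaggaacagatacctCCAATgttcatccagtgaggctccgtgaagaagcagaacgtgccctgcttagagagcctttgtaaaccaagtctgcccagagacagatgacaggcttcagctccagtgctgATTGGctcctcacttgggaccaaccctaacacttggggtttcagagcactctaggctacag

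In these windows Ccdc77 held none of the motifs and Enpp6 held 1 CCAAT. Wdr37 held 3 CCAAT, 1 GGGCGG on the other strand and 1 TGACGTCA, 104 to 97 bases before the start. RT1-Bb held CCAAT on both strands, and the one on the other strand lay 61 to 57 bases before the start. MHC class II promoters are known for such an inverted CCAAT, the Y box. Of 33469 promoters in the table, 34% held CCAAT, 30.5% GGGCGG, 12.9% TATAAA and 1.6% TGACGTCA. The share of G and C was 40% for Enpp6, 33.2% for Ccdc77, 63.6% for Wdr37 and 48.8% for RT1-Bb, against a median of 51.2%. A match is a description of these letters and not a site shown to be used.

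The dopamine neuron genes, each read by its brightest probe set, gave no call between the lines. Of the 20 tested genes of the list, 0 were called by limma with 20 or with 17 arrays, against 1.44% and 4.28% of all genes, which are the shares to set beside each list count below. The median difference was -0.12 with 20 arrays and -0.09 with 17, beside a median near 0 over all tested genes (-0.0037 and 0.0019). Th encodes tyrosine hydroxylase, which catalyses the limiting step in making dopamine, and was 14.54, 14.89 and 15.19 in AA and 14.70, 15.004 and 15.11 in ANA over the 17 arrays. These are among the highest signals of the arrays, as the labelled tissue would have, and the lines overlapped throughout. The Th difference was -0.10 ± 0.08 (adjusted p 0.56).

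The dopamine transporter gene Slc6a3 differed by 0.01 ± 0.10 with 17 arrays and -0.06 ± 0.09 with 20, and a further probe set by -0.11 ± 0.11 with 17. Ddc, the decarboxylase that makes dopamine from its precursor, differed by -0.09 ± 0.09 and -0.20 ± 0.13, and AA 1 was its lowest array at 12.63. For the vesicular monoamine transporter gene Slc18a2 the probe sets disagreed. The brightest differed by -0.02 ± 0.09 (AA 13.39 to 14.18, ANA 13.67 to 14.05), while its 2 further probe sets differed by -0.85 ± 0.12 and -0.88 ± 0.17 with 17 arrays. With 20 arrays these 2 differed by -0.79 ± 0.14 and -0.76 ± 0.20. The mean signal over 20 arrays was 13.81 for the brightest and 13.67 and 10.75 for the others. That Slc18a2 was not called therefore rests on the rule that takes the brightest probe set. Which of the probe sets follows the transcript level was not tested.

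Among receptors for fast inhibition, Glra1 stood out. It encodes the alpha 1 subunit of the glycine receptor, a chloride channel that ethanol is known to potentiate. Glra1 was 7.44, 7.77 and 8.69 in AA and 6.44, 6.72 and 7.70 in ANA, where ANA 6 (7.70) was the single ANA array above 7.21. The difference was 1.09 ± 0.19 (adjusted p 0.0024) with 17 arrays, and the ANA mean (6.84) was under the floor. With 20 arrays it was 1.14 ± 0.28 (adjusted p 0.040), with AA 1 highest at 9.38 and AA 19 (6.25) and ANA 20 (6.15) lowest. None of the other 3 tested genes of the glycine list was called, and Glrb, the beta subunit, differed by 0.17. Of 14 tested GABA genes 1 was called in both fits, Abat, the transaminase that breaks down GABA (0.23 ± 0.05, adjusted p 0.0067 with 17 arrays). Of its 2 further probe sets 1 was higher (0.22 ± 0.07) and the other lower (-0.13 ± 0.06) in AA. The GABA-synthesising genes Gad1 (-0.14) and Gad2 (0.10) did not pass the test.

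Of 28 tested glutamate genes 3 were called in both fits, 2 higher and 1 lower, beside 1.44% of all genes with 20 arrays and 4.28% with 17. Glul, the glutamine synthetase of astrocytes that converts glutamate taken up from synapses, was 13.67, 13.86 and 14.004 in AA and 13.17, 13.42 and 13.69 in ANA. ANA 6 (13.69), the highest ANA array, lay above AA 13 (13.67) and just below AA 5 (13.72), so the lines overlapped. The Glul difference was 0.45 ± 0.07 (1.362-fold, adjusted p 8.0e-04) with 17 arrays, and its 2 further probe sets were higher in AA by 0.27 and 0.29. With 20 arrays the Glul difference was 0.39 ± 0.07 (0.0044). The neuronal glutamate transporter gene Slc1a1 was 0.30 ± 0.04 higher (adjusted p 3.6e-04), without overlap over the 17 arrays, and a further probe set was lower (-0.14 ± 0.06). With 20 arrays Slc1a1 was 0.26 ± 0.05 higher (0.0051). Grm2, the metabotropic receptor that lowers glutamate release, was 6.24, 6.53 and 6.99 in AA and 6.66, 7.08 and 7.50 in ANA (-0.52 ± 0.11, adjusted p 0.013), with the AA mean (6.57) under the floor. With 20 arrays Grm2 differed by -0.61 ± 0.11 (0.0060). The astrocyte marker list, of which 0 of 13 tested genes were called, had a mean from 12.12 to 12.47 in AA and from 12.04 to 12.52 in ANA, and its part in the Glul difference was not tested.

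The cholinergic genes were lower where they were called. Chrna3 encodes the nicotinic receptor alpha 3 subunit, which forms channels with beta 4 in the habenula and its target, the interpeduncular nucleus. It was 6.96, 7.90 and 8.55 in AA and 8.16, 9.08 and 9.84 in ANA over the 17 arrays. AA 5 (8.553) and ANA 6 (8.546) were nearly equal. The difference was -1.14 ± 0.23 (2.201-fold, adjusted p 0.0075), and with 20 arrays -1.003 ± 0.21 (0.016). Slc5a7, the choline transporter that supplies acetylcholine synthesis, differed by -0.72 ± 0.18 (adjusted p 0.029) with 17 arrays and -0.65 ± 0.19 (0.10) with 20, and its AA mean (6.39) was under the floor. Leaving out ANA 2, AA 3, ANA 8, AA 15, ANA 16 or AA 17 ended the Slc5a7 call, with an adjusted p of up to 0.065. Chrna5, next to Chrna3 in the same gene cluster, differed by -0.55 (adjusted p 0.11). Of 5 tested markers of the raphe, red nucleus and interpeduncular nucleus, Chrna5 among them, 0 were called by limma in either fit and the median was -0.22 with 17 arrays. Their mean ran from 7.91 to 9.02 in AA and from 8.09 to 8.91 in ANA, and a part of this neighbouring tissue in the cholinergic differences was not tested.

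Neuropeptide systems gave few calls. Of 5 tested opioid genes all differences were below 0, from -0.32 to -0.16 with 17 arrays, and 1 was called. It was Oprl1, the nociceptin receptor, at 9.22, 9.35 and 9.55 in AA and 9.41, 9.58 and 9.62 in ANA (-0.20 ± 0.04, adjusted p 0.013, and 0.075 with 20 arrays). Of 4 tested genes of the CRF and NPY systems and 22 of other neuropeptides 0 were called by limma in either fit. The 3 tested serotonin genes, the 5 endocannabinoid genes and the 8 genes of dopamine and monoamine signalling also gave 0 calls in either fit.

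The list of nucleotide ectoenzymes and purine receptors held the genes with the largest difference in each direction, Enpp1 and Enpp6. Enpp6, whose product is choline-specific, is on the list by its family name. Of the 21 tested genes of the list 3 were called in both fits, Enpp6 and Entpd2 higher and Enpp1 lower. Over all tested genes 1.44% were called with 20 arrays and 4.28% with 17. Entpd2, which hydrolyses extracellular ATP to ADP, was 9.19, 9.38 and 9.54 in AA and 8.90, 8.99 and 9.26 in ANA. Its difference was 0.32 ± 0.05 (1.249-fold, adjusted p 0.0015), and a single ANA array, ANA 8, overlapped AA. With 20 arrays the Entpd2 difference was 0.29 ± 0.05 (0.0051). The median of the list was 0.01. Nt5e, which makes adenosine from AMP, differed by 0.20 (adjusted p 0.18), and the adenosine receptor gene Adora1 by 0.04 (0.70).

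Signalling inside the cell was represented by the cyclic AMP list, of which 2 of 22 tested genes were called with 17 arrays, both lower. Over all tested genes 2.2% were called lower with 17 arrays. Creb1, the transcription factor that cyclic AMP activates through the protein kinase A pathway, was 7.68, 7.96 and 9.04 in AA and 8.52, 8.87 and 9.19 in ANA. AA 5 (9.04) was the single AA array above 8.10. The difference was -0.84 ± 0.15 (1.79-fold, adjusted p 0.0026). With 20 arrays it was -0.61 ± 0.20 (adjusted p 0.15), and AA 1 had the highest Creb1 signal of them (9.68). Adcy2, an adenylyl cyclase, differed by -0.33 ± 0.07 (adjusted p 0.0062) with 17 arrays and -0.27 ± 0.07 (0.039) with 20. Of 10 tested immediate early genes 0 were called by limma in either fit, and their differences ran from -0.18 to 0.14 with 17 arrays.

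Channel and vesicle genes gave 1 call each, with 17 arrays alone. Of 21 potassium and HCN channel genes 1 was called, Kcnma1 of the large-conductance calcium-activated channel, with 17 arrays (0.41 ± 0.11, adjusted p 0.0496) and not with 20 (0.35 ± 0.11, adjusted p 0.12). A further Kcnma1 probe set differed by -0.26 ± 0.17. Of 22 genes of the synaptic vesicle 1 was called with 17 arrays, Sv2b (0.16 ± 0.04, adjusted p 0.046), and a further probe set differed by -0.14 ± 0.13. Leaving out 1 of the 17 arrays at a time ended the Kcnma1 call in 15 of 17 fits (adjusted p up to 0.10) and the Sv2b call in 12 (up to 0.095).

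Genes that handle ethanol, oxidants and protein folding gave few calls. Of 11 tested genes of ethanol and aldehyde metabolism 0 were called by limma in either fit. Aldh2, the mitochondrial enzyme that clears acetaldehyde, differed by -0.34 (adjusted p 0.058) with 17 arrays. Of 32 antioxidant genes 2 were called lower with 17 arrays, beside 2.2% of all tested genes called lower, and nothing is read from that count. Gsta4, a glutathione transferase that detoxifies lipid aldehydes, was 11.02, 11.28 and 11.59 in AA and 11.41, 11.93 and 12.51 in ANA (-0.61 ± 0.13, adjusted p 0.0094, and 0.012 with 20 arrays). Nqo1, a quinone reductase, differed by -0.30 ± 0.07 (0.025, and 0.17 with 20), and lost its call in 5 of the 17 fits that left out 1 array (adjusted p up to 0.056). None of 19 chaperone genes and 34 respiratory chain genes was called by limma in either fit, and the respiratory chain genes stayed between -0.05 and 0.13.

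**Figure D4:**
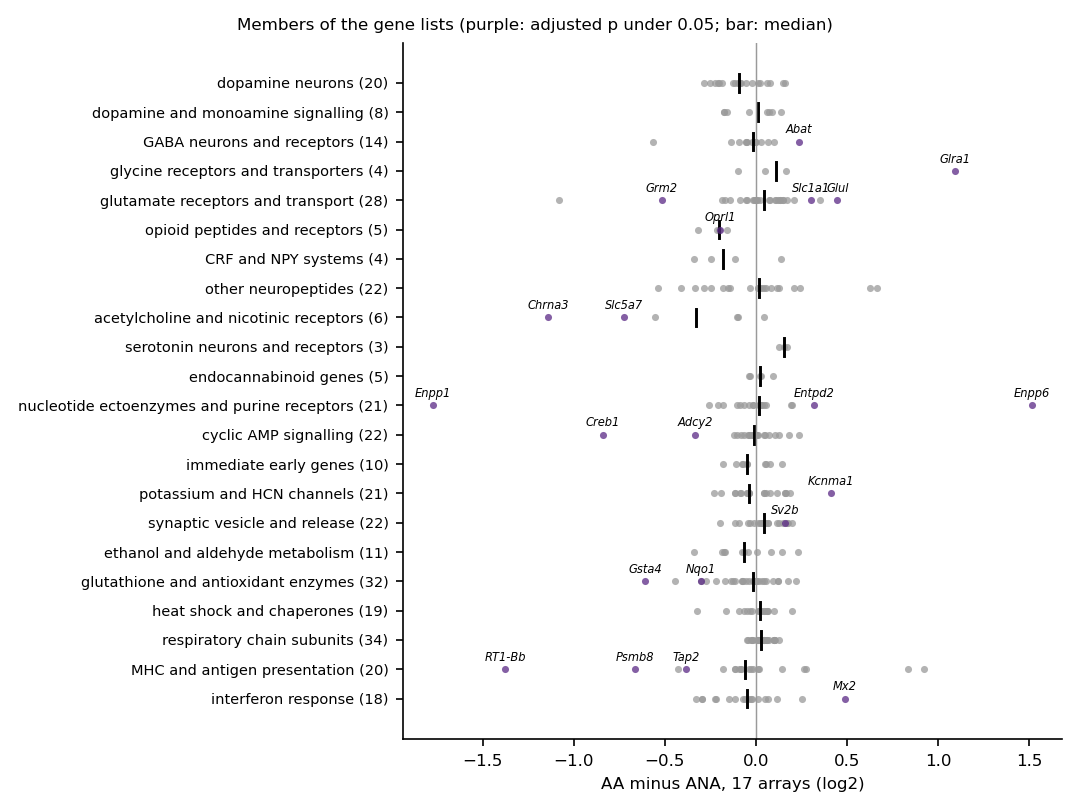
Log2 difference AA minus ANA with 17 arrays for the tested members of each list (number in brackets); purple points passed an adjusted p of 0.05 and are named, and black bars are medians. Most members lie close to 0, and single members such as Enpp1 (-1.77), Enpp6 (1.51), RT1-Bb (-1.38) and Chrna3 (-1.14) lie far from their list's median.

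Genes of MHC and antigen presentation gave 3 calls, all lower in AA. Of 20 tested genes on the list 3 were lower with 17 arrays, RT1-Bb, Tap2 and Psmb8, and 2 of them, RT1-Bb and Tap2, with 20. Tap2 encodes a subunit of the peptide transporter that loads MHC class I, and it was 8.10, 8.31 and 8.62 in AA and 8.46, 8.73 and 8.93 in ANA (-0.38 ± 0.08, adjusted p 0.0057). With 20 arrays Tap2 differed by -0.38 ± 0.09 (0.030). Psmb8 encodes a subunit of the immunoproteasome and was 7.45, 7.74 and 8.43 in AA and 8.18, 8.48 and 8.87 in ANA (-0.66 ± 0.12, adjusted p 0.0036). AA 1, at 9.15, had the highest Psmb8 signal, and with 20 arrays the gene differed by -0.47 ± 0.18 (0.25). The MHC class I gene RT1-CE12, which is not on the list, was called higher (0.36), as were Ltb and Aif1 of the same region. Other members of class II presentation differed the other way without passing the test, as Cd74 (0.92, adjusted p 0.15) and RT1-Da (0.84, 0.069).

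Of 18 interferon response genes 1 was called with 17 arrays, Mx2 (0.49 ± 0.13, adjusted p 0.036). AA 19 (4.79), ANA 20 (4.61) and AA 1 (5.80) lay far below the other 17 (7.69 to 9.15), and with 20 arrays Mx2 differed by 0.16 ± 0.55 (0.94). A further, dimmer Mx2 probe set was higher in AA by 1.08 ± 0.19 with 17 arrays and 1.10 ± 0.27 with 20, so the probe sets differ in size. The microglial marker Aif1 was 0.38 ± 0.10 higher (adjusted p 0.028, and 0.19 with 20 arrays). The other 12 tested microglial genes gave 0 calls, and the list mean ran from 8.63 to 9.04 in AA and from 8.64 to 9.09 in ANA over the 17 arrays. Leaving out 1 of the 17 arrays at a time ended the Mx2 call in 12 of 17 fits (adjusted p up to 0.078) and the Aif1 call in 7 (up to 0.061).

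Vessel and choroid plexus markers gave 1 call each with 17 arrays and 0 with 20. Abcb1a, the P-glycoprotein pump of the blood-brain barrier, was 10.15, 10.33 and 10.48 in AA and 9.48, 9.80 and 10.29 in ANA (0.51 ± 0.10, adjusted p 0.0061). A further Abcb1a probe set was 0.33 ± 0.09 higher. Kcnj13, a potassium channel of the choroid plexus, differed by -0.27 ± 0.07 (0.036) and lost its call in 10 of the 17 fits that left out 1 array (up to 0.072). Of 16 genes of myelin 0 were called by limma in either fit.

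Some called genes lie next to one another in the gene order of the GRCr8 assembly. Of the genes called with 17 arrays, 188 successive pairs had at most 19 protein-coding genes between them, and 97 of these pairs had opposite signs. In 15 pairs no protein-coding gene lay between, and 9 of these had opposite signs. How many such pairs as many genes at any places would give was not tested. These counts therefore do not show that called genes cluster. Ccdc77 (1.43) lay next to the histone demethylase gene Kdm5a (-0.27), and P3h4 (0.90) next to Fkbp10 (-0.34), whose product is a collagen chaperone. Tap2 (-0.38) and Psmb8 (-0.66) were adjacent and both lower, with RT1-Bb (-1.38) beyond 1 gene. Ltb (0.98) and Aif1 (0.38), both higher, had 2 genes between them. The successive genes Nrp2 (-0.73), Creb1 (-0.84) and Plekhm3 (-0.27) were all lower, with 13 and 4 genes between. RT1-CE12, Kdm5a, Fkbp10, Nrp2 and Plekhm3 are outside the rule for named genes and were chosen as neighbours after their values were seen.

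The contrast with the HAD/LAD lines asks whether a difference between AA and ANA differed from that in other pairs bred for high and low drinking. Across all probe sets the 17 arrays had a median correlation of 0.993 within their pair. With the HAD1 and LAD1 arrays it was 0.947, and with the HAD2 and LAD2 arrays 0.933. Differences are taken within each pair, but line pair and set of arrays cannot be told apart here. AA minus ANA differed from the mean of HAD1 minus LAD1 and HAD2 minus LAD2 for 451 of 10445 genes with 20 arrays (4.32%), 199 of them larger (1.91%) and 252 smaller (2.41%) in AA minus ANA. With 17 arrays there were 600 (5.74%). Because the HAD/LAD signs are fixed while that of AA minus ANA is not settled, the contrast was also taken with AA minus ANA turned, a setting chosen after seeing the data. Turned, 397 genes (3.8%) were called with 20 arrays, 187 larger (1.79%) and 210 smaller (2.01%), and 5.44% of the genes with 17. Of the 53 named genes 35 were called in this contrast. They were chosen mostly for their AA minus ANA difference, which enters the contrast, so nothing is read from that count. The same choice enters the contrasts of single genes below, so their p-values describe these genes and are no separate test of them. Of the same 53, 10 were called in HAD1 minus LAD1 and 8 in HAD2 minus LAD2, against 4.21% and 5.99% of all tested genes. These counts take no account of direction, and the 53 were chosen by their differences and lists. Nothing is read from these counts either.

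Enpp1 differed by -0.08 in HAD1 and 0.09 in HAD2 relative to their LAD lines, against -1.56 in AA, a contrast of -1.56 ± 0.24 (adjusted p 9.7e-06). Enpp6 differed by 0.34 and -0.25 in the HAD/LAD pairs (contrast 1.308 ± 0.21, adjusted p 2.2e-05), and Glra1 by -0.02 and 0.03 (contrast 1.13 ± 0.23, 0.0011). Fcrl2 ran in the opposite direction, at 0.64 in HAD1 and 2.106 in HAD2 (adjusted p 1.2e-07 in the latter), with a contrast of -2.84 ± 0.32. Psmb8 too was higher in HAD1 (0.59) and HAD2 (0.54), with a contrast of -1.03 ± 0.18. Both rest on the labelled direction, since with the sign turned neither contrast was called. With 20 arrays the turned contrast was 0.10 ± 0.32 (adjusted p 0.94) for Fcrl2 and -0.096 ± 0.18 (0.89) for Psmb8. With 17 arrays it was 0.23 ± 0.21 (0.65) for Fcrl2 and 0.099 ± 0.15 (0.83) for Psmb8. For Enpp1 (1.55 ± 0.24), Enpp6 (-1.39 ± 0.21), Glra1 (-1.14 ± 0.23) and Creb1 (0.58 ± 0.17) the turned contrasts with 20 arrays were called too. With 17 arrays they were 1.76, -1.56, -1.10 and 0.81, and also called. Creb1 differed by 0.03 in each HAD/LAD pair (contrast -0.64 ± 0.17, adjusted p 0.013).

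For 4 further genes the labelled contrast did not pass with 20 arrays. RT1-Bb was lower in HAD1 (-0.74, adjusted p 0.0021) and HAD2 (-0.72, 0.0024), and the contrast was -0.50 ± 0.19 (0.13) with 20 arrays and -0.65 ± 0.18 (0.021) with 17. Ncaph was higher in HAD2 (0.97), and its contrast was 0.42 ± 0.22 (0.31) with 20 arrays and 0.56 ± 0.17 (0.035) with 17. Gsta4 was lower in HAD1 (-0.96), with -0.34 in HAD2 (adjusted p 0.12), and the contrast was 0.03 ± 0.15 (0.95). Grm2 was lower in HAD1 (-0.50, adjusted p 7.3e-04), and its contrast was -0.34 ± 0.12 (0.10). With the sign of AA minus ANA turned, all 4 contrasts were called with 20 arrays, at 1.95 ± 0.19 for RT1-Bb, -1.86 ± 0.22 for Ncaph, 1.28 ± 0.15 for Gsta4 and 0.88 ± 0.12 for Grm2. An adjusted p that misses the threshold does not show that the pairs act alike.

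**Figure D5:**
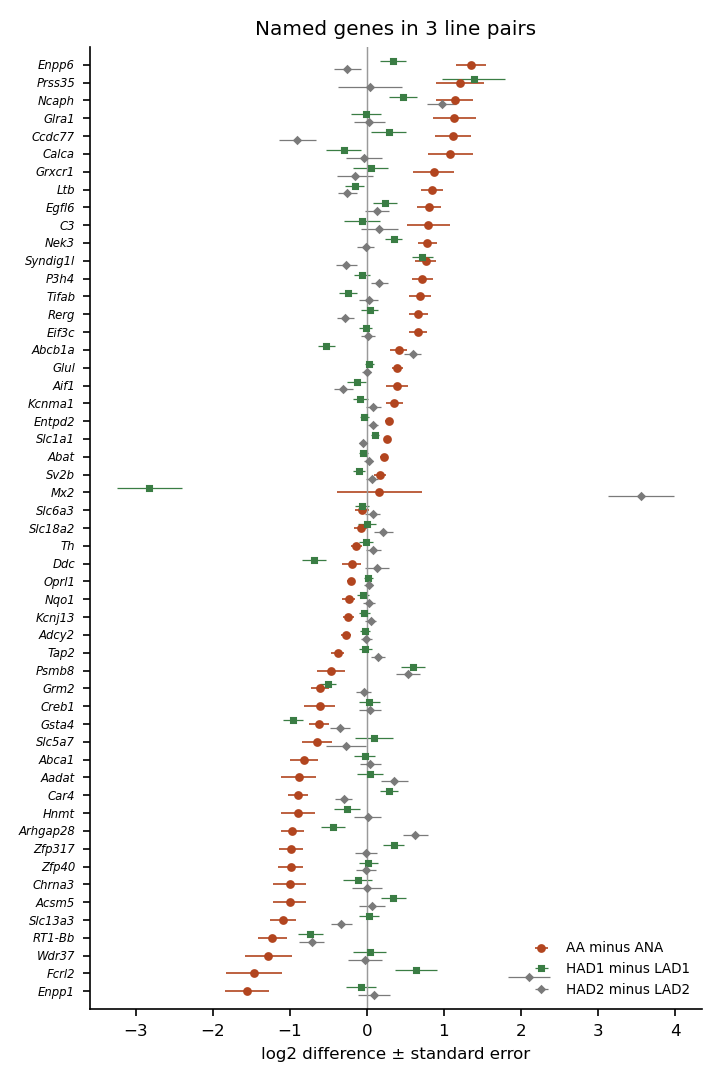
Log2 difference ± standard error of the 53 named genes for AA minus ANA (20 arrays), HAD1 minus LAD1 and HAD2 minus LAD2. The genes were chosen mostly for their AA minus ANA difference. For most genes the HAD/LAD differences lie near 0, Fcrl2 (2.106 in HAD2) lies on the other side of 0 from AA minus ANA as labelled, and RT1-Bb lies below 0 in each pair as labelled.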

How the data were processed

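RNA from the ventral tegmental area was hybridised to 1 Affymetrix array per animal, after amplification of 25 ng of total RNA in 2 cycles, per the labels' protocols. The authors deposited log2 values for 31099 probe sets, and the submitters' processing notes name RMA; no version of it is named in them. Depth has no count on arrays, and the number of arrays and the spread between them set the precision. Nothing in the labels describes litters or batches, so neither could enter the fits. The p-values set a line difference against the spread between arrays of the same label. Any litter or batch would be part of that spread or of the line difference.

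Of the probe sets, 20826 name 1 gene, 436 several and 9780 none in the platform annotation, and 57 are controls; 20758 of the single-gene ones matched the reference table, with 0 symbols changed. Each of 14217 genes was represented by the brightest of its single-gene probe sets on average over the 20 arrays, and 10445 genes were tested whose higher line mean reached the 40th percentile of the pair's values (6.92). The lines were compared with limma 3.58.1 in R 4.3.3 (2-sided, Benjamini-Hochberg, adjusted p under 0.05), for 20 and for 17 arrays, and in 1 fit with the HAD and LAD lines for the contrast. Array measures were compared by permutation, with 100000 resamples for 20 arrays and exactly for 17. On simulated data with 50 changed genes per size, the 20-array test recovered 62% of log2 differences of 0.25, 90% of 0.5 and 100% of 1, with 9 of 185 calls false, and the 17-array test 60%, 92% and 100%, with 13 of 189 false. The simulated noise was drawn independently for each gene and array, with labels known to be right. These shares therefore need not hold for the real arrays. Fold changes at low signals are compressed by background on arrays.

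Named genes were the 12 highest and 12 lowest called genes in each of the 2 fits, up to 4 called members of each list by adjusted p, and Th, Slc6a3, Ddc and Slc18a2, passing over predicted symbols. The arrays, lists and rules were chosen with earlier results of these data known. Probe sets with several genes were left out, and those with no gene are given only as counts. Alternatives covered the floor, normalization, centring, variance model, array weights, probe set rule and arrays in the fit. Promoter sequences and gene order are from RefSeq, GRCr8.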

Additional observations from a re-analysis of the deposited data

Results flagged for a closer look

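Among 138 groups of 10 arrays examined, 24 held an array whose gap to the next exceeded 0.466 of the group's range, where chance gives about 1 in 20. For the named genes it was 19 of 106 groups, 10 of them ANA 20, 2 AA 19 and 1 AA 1. ANA 20 was the lowest ANA array for Fcrl2 (5.33), RT1-Bb (5.97), Slc13a3 (9.17), Zfp40 (9.17), Zfp317 (9.09), Car4 (9.15), Slc5a7 (6.02) and Mx2 (4.61), and the highest for Prss35 (8.04) and Slc1a1 (10.33). AA 19 was the lowest AA array for Grxcr1 (6.44) and C3 (7.07), and AA 1 the highest for Aif1 (10.71). AA 5 was the highest AA array for Slc13a3 (10.17), Zfp40 (10.18) and Zfp317 (10.13). ANA 6 stood apart as the highest ANA array for Eif3c (11.49) and the lowest for Wdr37 (10.51) and Slc6a3 (14.25).

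AA 1 also stood apart in its array median (7.90), lower quartile (5.92), 3′-minus-5′ signal of Gapdh (0.149) and that of actin (2.28). ANA 20 had the lowest mean correlation with the other ANA arrays (0.988).

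For 35 of the 53 named genes the AA minus ANA difference with 20 arrays differed from the mean of the HAD/LAD differences (limma contrast, adjusted p under 0.05). It was larger in AA minus ANA for Ccdc77 (1.43), Enpp6 (1.308), Calca (1.2504), Glra1 (1.13), Ltb (1.06), Grxcr1 (0.92), Tifab (0.80), Rerg (0.79), P3h4 (0.67), Eif3c (0.66), Egfl6 (0.62), Nek3 (0.62), Aif1 (0.61), Syndig1l (0.54), Glul (0.38), Entpd2 (0.27), Abat (0.23) and Slc1a1 (0.23). It was smaller for Fcrl2 (-2.84), Enpp1 (-1.56), Wdr37 (-1.29), Acsm5 (-1.21), Zfp317 (-1.15), Aadat (-1.08), Arhgap28 (-1.06), Psmb8 (-1.03), Zfp40 (-0.99), Slc13a3 (-0.94), Chrna3 (-0.94), Car4 (-0.88), Abca1 (-0.82), Hnmt (-0.77), Creb1 (-0.64), Tap2 (-0.44) and Oprl1 (-0.23). The named genes were chosen mostly on AA minus ANA, which enters each of these contrasts. The directions are those of the labels. With 20 arrays and AA minus ANA turned, the contrast of Fcrl2 was 0.10 and that of Psmb8 -0.096, neither called.

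Of 4649 probe sets with no gene symbol above the same floor, 202 (4.35%) were called with 20 arrays and 405 (8.71%) with 17. Among the 10445 genes the shares were 1.44% and 4.28%. The probe sets were fitted and adjusted apart from the genes and were not reduced to 1 per transcript. The shares are therefore not like measures, and nothing is read from their difference.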

How the results depend on the processing

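The count of called genes depended most on which arrays entered and on their weights. In place of the 150 genes called with 20 arrays, array weights gave 727, 1 fit of all 91 arrays 318, a term for the value distribution set 340, 17 arrays 447, 17 arrays with quantile normalization 448, and 15 arrays 624. The 447 with 17 arrays became 748 with array weights. The 36 genes at 1.5-fold or more became 22 with the floor at the 60th percentile, 74 with array weights, 55 with the probe set of highest variance, 64 with 17 arrays with or without quantile normalization, and 94 with 15 arrays. The 4 genes without overlap became 47 with 17 arrays and 216 with 15, and the 451 of the HAD/LAD contrast became 714 with 15. Leaving out 1 array at a time gave 97 to 284 genes with 20 arrays, 26 to 53 at 1.5-fold or more, and 294 to 608 with 17 arrays. Some signs turned. Slc6a3 (-0.06 with 20 arrays) was 0.0095 with array weights, 0.013 with 17 arrays, 0.018 with 17 quantile-normalized arrays and 0.0077 with 15. With the probe set of highest variance Slc1a1 was -0.070 and Sv2b -0.086, and Mx2 (0.16 with 20 arrays) was -0.20 without ANA 20 and 0.52 without AA 19. With 17 arrays the line difference in lower quartile was -0.018 (0.0018 with 20) and that in the 3′-minus-5′ signal of actin 0.015 (-0.066 with 20). The cause was not tested. No paired analysis was possible because the AA arrays carry odd and the ANA arrays even numbers and share none. Signals below the floor of 6.92 limit what can be called there.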
